A study of Mus musculus with 16 samples.

Results

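The striated muscle myosin heavy chain genes Myh1, Myh2, Myh3, Myh4, Myh7, Myh7b and Myh8 were followed in gastrocnemius muscle, a calf muscle, over 4 ages. Every probe whose transcript accession belongs to one of the 7 genes was taken, which gave 9 probes of the 55588 used on the array, since Myh3 and Myh8 had 2 probes each. Total RNA came from untreated C57Bl/6J females at 4 ages, namely 3 months, 15 months, 24 months and 29 months. It was labelled with Cy3 and hybridised to Agilent 1-colour arrays, 4 per age and 16 in all. All groups shared strain, sex and the absence of treatment, and since nothing in the labels tells whether 1 animal gave 1 sample, the p-values cover only the variation among the samples at hand, which may be technical. Per the headers, a first slide held the 2 younger ages (3 and 15 months) and a second slide the 2 older ones (24 and 29 months). Age and slide therefore cannot be told apart at 24 against 3, 29 against 3 and 24 against 15 months. Values are given as the normalised log2 signal, the log2 processed signal minus the 75th percentile of its array, so that 0 is the level of that percentile.

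The 9 probes were well above background on all 16 arrays, none was saturated, and all 9 passed the filter on dim probes. Probe sequences were not used here, so it was not examined whether a probe separates its gene from its near-identical neighbours, and each value belongs to the probe. Levels were compared between ages for the same probe and not between probes. The skeletal muscle markers Acta1, Ckm, Des and Ttn were also above background on all 16 arrays. Of the 5 cardiac markers, Myl7 was above background on 0 arrays, Tnni3 on 2, Nppb on 11, Nppa on 14 and Myh6, the cardiac alpha chain, on 16. The 75th percentile of the arrays lay between 7.71 and 8.44 on the log2 scale, and between 48.0% and 60.9% of probes were well above background. Over all probes, which are not replicates of each other, same-age arrays had r of 0.970 to 0.994. The array weights fitted by limma were lowest for replicate 1 at 29 months (0.29), replicate 2 at 24 months (0.38), replicate 3 at 29 months (0.42) and replicate 4 at 24 months (0.57). These 4 arrays had stood apart in earlier results of these data.

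Myosin heavy chains are the motor proteins of the thick filament. Each fibre of adult skeletal muscle is classed by the chain it makes, and the chain largely sets the speed at which the fibre shortens. Myh4 encodes the fast type IIB chain, Myh1 the fast IIX chain, Myh2 the fast IIA chain and Myh7 the slow type I chain. Myh7b encodes a slow-tonic chain, and Myh3 and Myh8 encode the embryonic and perinatal chains, which are made in developing fibres and again in regenerating ones. The mouse gastrocnemius is known as a mostly fast muscle.

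In the RefSeq annotation, Myh3, Myh2, Myh1, Myh4 and Myh8 follow each other in this order on chromosome 11, with Sco1 before and Myh13 after them. Myh7 lies beside Myh6 on chromosome 14, and Myh7b lies on chromosome 2. All 7 genes had an entry among the RefSeq promoters of build GRCm38.p6 (250 bases before and 50 bases after each start), Myh7 with 2. The promoters of 4 of the 5 clustered genes are shown because they share a run of 14 bases, TTCTAATTATATCC, which 4 of 32851 promoters hold (0.012%). The run begins 160 bases before the start of Myh1, 125 before that of Myh2, 158 before that of Myh4 and 54 before that of Myh8. Capitals mark this run and, in Myh1, Myh4 and Myh8, the 10 bases TTATTTATAG, which match the consensus of MEF2, a transcription factor of muscle. Some match to that consensus, on either strand, is held by 3.187% of all promoters. All 4 stretches are on the plus strand, at chr11:67237589-67237677 for Myh4, chr11:67199877-67199965 for Myh1, chr11:67170837-67170925 for Myh2 and chr11:67277005-67277093 for Myh8.
Myh4: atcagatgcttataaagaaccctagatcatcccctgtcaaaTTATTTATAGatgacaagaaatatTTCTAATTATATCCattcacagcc
Myh1: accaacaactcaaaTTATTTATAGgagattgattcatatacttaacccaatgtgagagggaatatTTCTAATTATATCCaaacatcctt
Myh2: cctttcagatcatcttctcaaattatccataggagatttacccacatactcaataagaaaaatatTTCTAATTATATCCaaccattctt
Myh8: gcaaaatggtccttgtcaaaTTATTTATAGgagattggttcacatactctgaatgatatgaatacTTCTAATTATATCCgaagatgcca

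The MEF2 match is part of a longer run, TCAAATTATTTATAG, that the promoters of Myh1, Myh4 and Myh8 hold and no other promoter of the table does (3 of 32851, 0.009%). Neither run is in the windows of Myh3, Myh7 or Myh7b. These matches describe the letters of the windows and say nothing of binding.

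The 250 bases before the starts of Myh7 and Myh7b are shown because these 2 genes varied together more closely than any other pair of different genes in the family. Capitals mark each E-box, CANNTG, the motif bound by the myogenic factors, which 72.314% of all promoters hold on either strand. The Myh7 stretch is at chr14:54994550-54994799 on the minus strand, from one of its 2 entries, and the Myh7b stretch is at chr2:155610993-155611242 on the plus strand. The longest run shared by the promoters of Myh7 and Myh7b was 10 bases, against 21 for Myh1 and Myh2.
Myh7: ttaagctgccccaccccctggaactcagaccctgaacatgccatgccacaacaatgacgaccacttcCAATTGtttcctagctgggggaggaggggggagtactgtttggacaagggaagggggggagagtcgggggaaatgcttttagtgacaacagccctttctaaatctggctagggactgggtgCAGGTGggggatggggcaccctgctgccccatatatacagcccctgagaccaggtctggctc
Myh7b: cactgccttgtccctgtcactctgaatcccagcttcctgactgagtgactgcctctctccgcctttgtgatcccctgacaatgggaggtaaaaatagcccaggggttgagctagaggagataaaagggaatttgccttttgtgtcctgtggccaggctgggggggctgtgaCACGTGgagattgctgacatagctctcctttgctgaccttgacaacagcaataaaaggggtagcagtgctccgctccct

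Both slow genes also carry a microRNA, in RefSeq build GRCm38.p6, and so does Myh3 (Mir6923, at chr11:67099804-67099875 on the plus strand, not shown). The mature miR-499-5p lies within Myh7b at chr2:155622893-155622913 on the plus strand, and miR-208b-3p lies within Myh7 at chr14:54975710-54975731 on the minus strand. They are shown because their seeds, bases 2 to 8 and in capitals, share 6 of 7 bases. Counted from 1 at the 5′ end and from miR-499-5p to miR-208b-3p, the seeds differ by the substitution U8G. No probe of the array carried a RefSeq microRNA symbol, so none of these microRNAs was measured here.
miR-499-5p: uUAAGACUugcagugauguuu
miR-208b-3p: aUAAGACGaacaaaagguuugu

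With age, no myosin heavy chain probe passed the test in any comparison. A probe was called at an adjusted p under 0.05 in limma's moderated fit, adjusted by the Benjamini-Hochberg method over all 28427 probes kept. At 29 against 3 months 0 of 9 probes were called, against 14.4% of all probes tested, and their adjusted p ranged from 0.064 to 0.93. At 24 against 3 months 0 of 9 were called, against 4.5% of all probes, and at 15 against 3 months 0 of 9, against 0.985%. At 29 against 3 months 0 of 9 probes had all 4 older arrays above all 4 younger ones, against 8.52% of all probes. At 24 against 15 months 0.102% of all probes were called and at 29 against 24 months 1.33%, and again 0 of 9 myosin probes in each. Without adjustment, 3 of 9 probes had p under 0.05 at 29 against 3 months (both Myh3 probes and Myh7) against 28.5% of all probes, and 3 of 9 at 15 against 3 months (both Myh3 probes and Myh1) against 11.1%. The count was 2 of 9 at 24 against 3 months (both Myh3 probes) against 20.7%, 1 of 9 at 24 against 15 months (a Myh8 probe) against 13.1%, and 0 of 9 at 29 against 24 months against 14.8%. The 3 comparisons with 3 months share their control arrays.

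**Figure D1:**
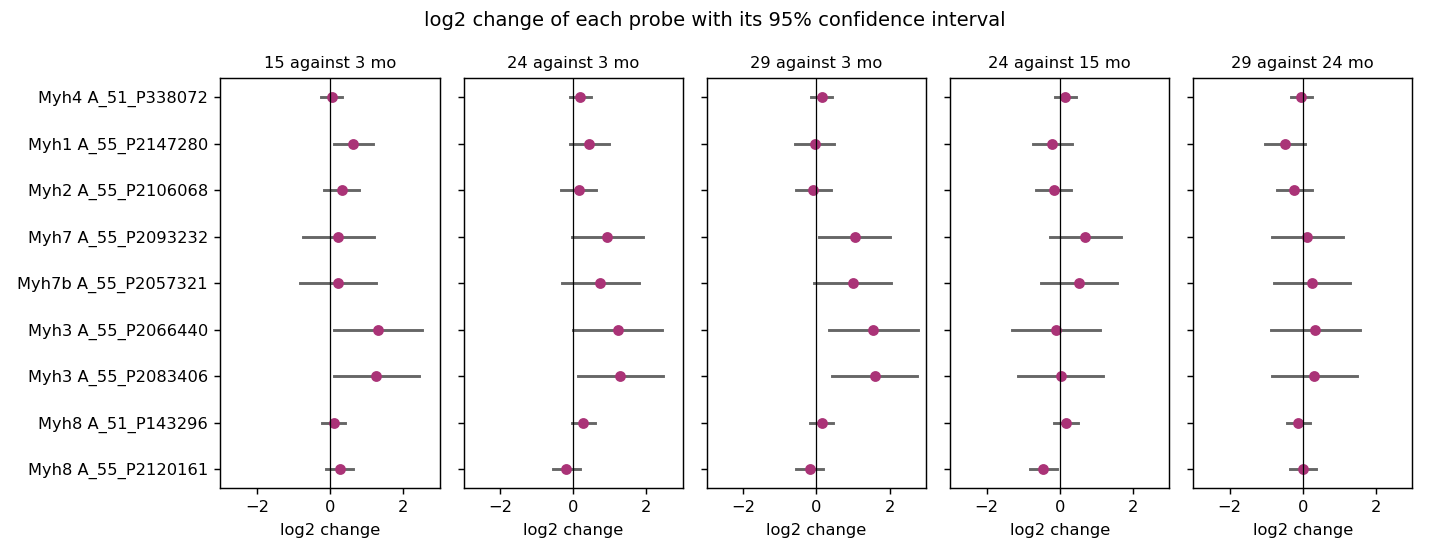
log2 change of each of the 9 probes (rows) in the 5 age comparisons (panels, older against younger age), with bars for the 95% confidence interval of limma's fit over 16 arrays. The intervals of both Myh3 probes lie above 0 at 29 against 3 months (0.35 to 2.77 and 0.43 to 2.76), and also at 15 and 24 against 3 months. Intervals that leave out 0 are also those of Myh7 at 29 against 3 months (0.08 to 2.02) and Myh1 at 15 against 3 months (0.10 to 1.18). At 24 against 15 months that of Myh8 A_55_P2120161 lies below 0 (-0.81 to -0.08). Those of Myh4 are the narrowest, and no probe passed the test after adjustment.

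None of the fast adult chains was called at 29 against 3 months. Normalised log2 signals of Myh4, the type IIB chain (probe A_51_P338072), were 10.24, 10.35, 10.59 and 10.42 at 3 months, 10.46, 10.81, 10.25 and 10.23 at 15 months, 10.55, 10.78, 10.47 and 10.54 at 24 months, and 10.31, 10.64, 10.62 and 10.59 at 29 months. All 4 ages overlapped, and the 16 values spanned 1.5-fold. These values followed the array's own 75th percentile with the sign turned (r = -0.96, n = 16), so they bear little on how steady Myh4 was. The log2 change of Myh4 at 29 against 3 months was 0.14 (SE 0.13, 95% CI -0.15 to 0.43, adjusted p = 0.54), an interval that reaches from 0.90-fold to 1.35-fold. In bulk muscle RNA, fewer fibres of a type and less RNA per fibre cannot be told apart.

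Myh1, the type IIX chain (probe A_55_P2147280), had values of 8.40, 8.31, 8.48 and 9.0 at 3 months, 8.84, 9.38, 9.01 and 9.51 at 15 months, 9.43, 9.10, 8.42 and 8.98 at 24 months, and 8.19, 9.12, 8.08 and 8.61 at 29 months. At 15 months 3 of the 4 arrays lay above every array at 3 months, while the values at 29 months reached both below and above those at 3 months. The log2 change was 0.64 at 15 against 3 months (SE 0.25, 95% CI 0.10 to 1.18, adjusted p = 0.33). It was -0.49 at 29 against 24 months (SE 0.25, adjusted p = 0.39) and -0.05 at 29 against 3 months (SE 0.25, 95% CI -0.59 to 0.49, adjusted p = 0.93). The step from 24 to 29 months minus that from 3 to 15 months, each taken within a slide, was -1.12 for Myh1 (SE 0.36, 95% CI -1.89 to -0.36, adjusted p = 0.19). This difference of steps was called for 0 of 9 myosin probes and for 0.545% of all probes, and without adjustment for 1 of 9 (Myh1) and 12.3% of all probes.

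Myh2, the type IIA chain (probe A_55_P2106068), had values of 9.39, 9.32, 8.80 and 9.62 at 3 months, 9.47, 9.75, 9.48 and 9.68 at 15 months, 9.56, 9.48, 9.18 and 9.49 at 24 months, and 8.58, 9.88, 9.05 and 9.28 at 29 months. The lowest and the highest of all 16 values were both at 29 months, where the standard deviation was 0.54, against 0.34 at 3 months. The log2 change at 29 against 3 months was -0.09 (SE 0.23, 95% CI -0.57 to 0.39, adjusted p = 0.85). Over the 16 arrays Myh2 followed Myh1 (r = 0.79, Spearman's rho = 0.87, n = 16), and r was 0.74 within the slide of 3 and 15 months and 0.83 within the other slide. Without the 2 arrays farthest from the median r was 0.84. Both genes were read from the same RNA and scaled by the same percentile, and r before scaling was 0.76.

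**Figure D2:**
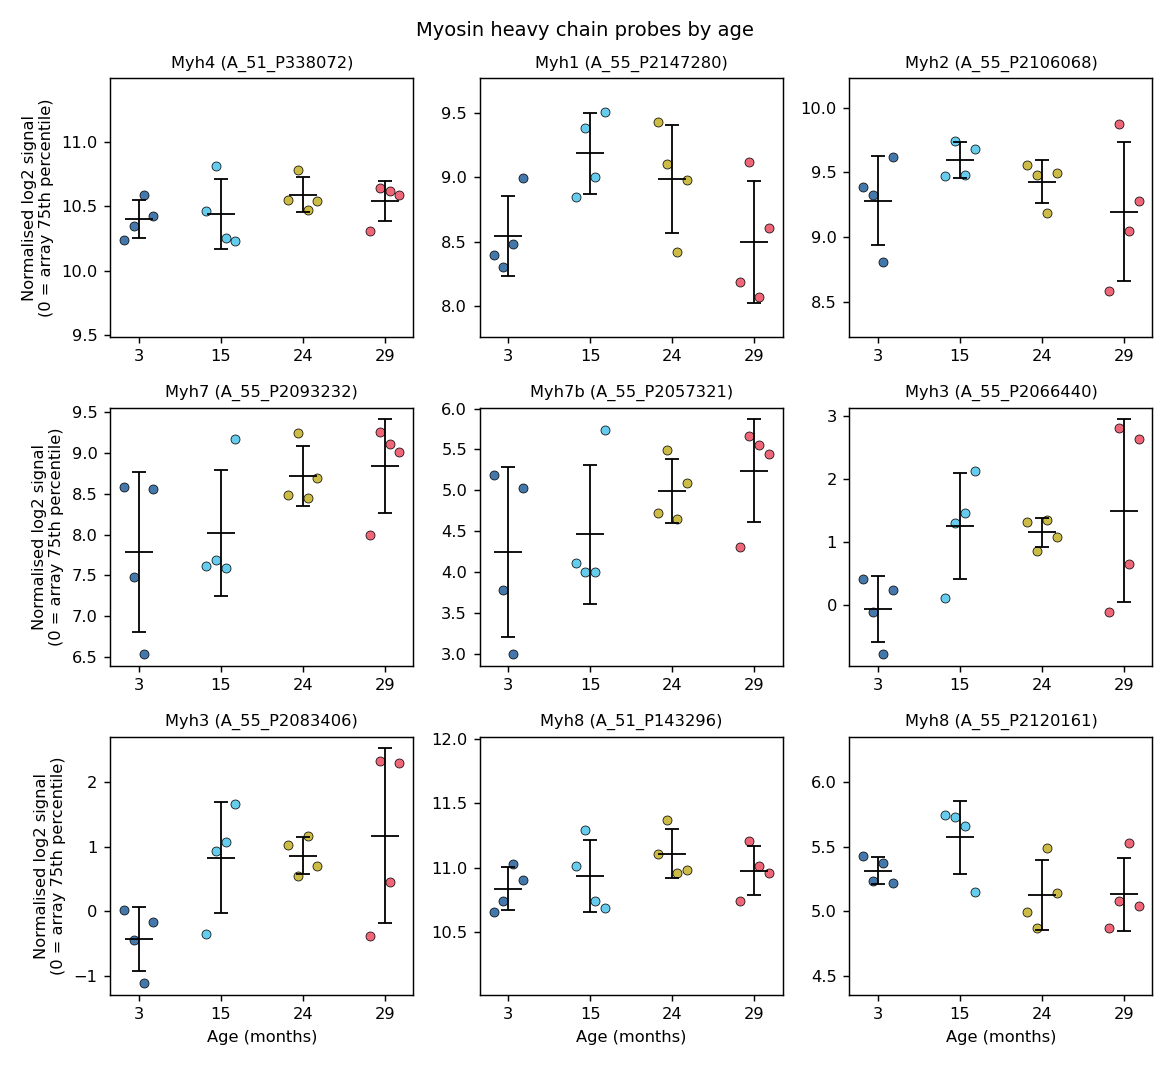
Normalised log2 signal of the 9 probes (1 panel each) against age in months, with 1 point per array, the mean as a horizontal line and the standard deviation as a bar (n = 4 per age). Each panel has its own range of at least 2 log2 units, and of the 5 age comparisons only 24 against 3 months, for both Myh3 probes, shows ages that do not overlap.

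Over the 16 arrays the probes of the slow chains spanned wider ranges than those of the fast adult chains. Myh7, the slow type I chain (probe A_55_P2093232), had values of 8.59, 7.48, 6.54 and 8.55 at 3 months, 7.61, 7.69, 7.59 and 9.17 at 15 months, 8.49, 9.24, 8.45 and 8.69 at 24 months, and 8.0, 9.25, 9.10 and 9.01 at 29 months. The 16 values spanned 6.54-fold, and the 4 arrays at 3 months alone spanned 4.13-fold. At 29 months 3 of the 4 arrays lay above all 4 at 3 months, while replicate 1 at 29 months lay below 2 of them. The log2 change at 29 against 3 months was 1.05 (SE 0.46, 95% CI 0.08 to 2.02, adjusted p = 0.14), and at 24 against 3 months it was 0.93 (SE 0.46, 95% CI -0.05 to 1.90, adjusted p = 0.26). Within the slides the changes were 0.23 at 15 against 3 months (SE 0.46, adjusted p = 0.95) and 0.12 at 29 against 24 months (SE 0.46, adjusted p = 0.93).

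Myh7b, the slow-tonic chain (probe A_55_P2057321), had values of 5.18, 3.78, 3.00 and 5.03 at 3 months, 4.11, 4.01, 4.0 and 5.74 at 15 months, 4.73, 5.49, 4.65 and 5.09 at 24 months, and 4.31, 5.66, 5.56 and 5.44 at 29 months. Replicate 3 at 3 months was the lowest array and replicate 4 at 15 months stood above the rest of its age, as for Myh7, and the ages overlapped. The log2 change of Myh7b at 29 against 3 months was 0.99 (SE 0.49, 95% CI -0.06 to 2.04, adjusted p = 0.20).

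Across the 16 arrays Myh7 and Myh7b correlated at r = 0.99 (Spearman's rho = 0.98, n = 16). The correlation was 0.99 within the slide of 3 and 15 months and 0.98 within that of 24 and 29 months (n = 8 each), 0.99 after the age means were subtracted and 0.98 without the 2 arrays farthest from the median. The difference between the log2 values of the 2 probes had a standard deviation of 0.12 over the arrays, against 0.78 for Myh7 and 0.80 for Myh7b themselves. Of the 34 pairs of probes of different genes this was the closest, and the lowest r was -0.46, between Myh7 and the Myh8 probe A_55_P2120161.

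Genes whose pattern over the 16 arrays was most like each myosin were sought among 13343 genes outside the family, by Pearson's r. For Myh7 they were the slow troponin genes Tnnc1 (r = 0.99), Tnnt1 (r = 0.99) and Tnni1 (r = 0.98), whose products switch the thin filament in slow fibres. For Myh7b they were Tnnc1 (r = 0.98), Atp2a2 (r = 0.98), the calcium pump of slow fibres, and Tnni1 (r = 0.97). The array with the lowest Myh7, replicate 3 at 3 months, had the lowest values of Tnnc1 (2.25), Tnnt1 (6.49) and Tnni1 (2.52). As these genes were picked for their likeness over the same arrays, this is not a separate result. At 29 against 3 months the log2 changes were 1.01 for Tnnc1 (adjusted p = 0.17), 1.16 for Tnnt1 (adjusted p = 0.091), 1.11 for Tnni1 (adjusted p = 0.17) and 1.07 for Atp2a2 (adjusted p = 0.14).

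**Figure D3:**
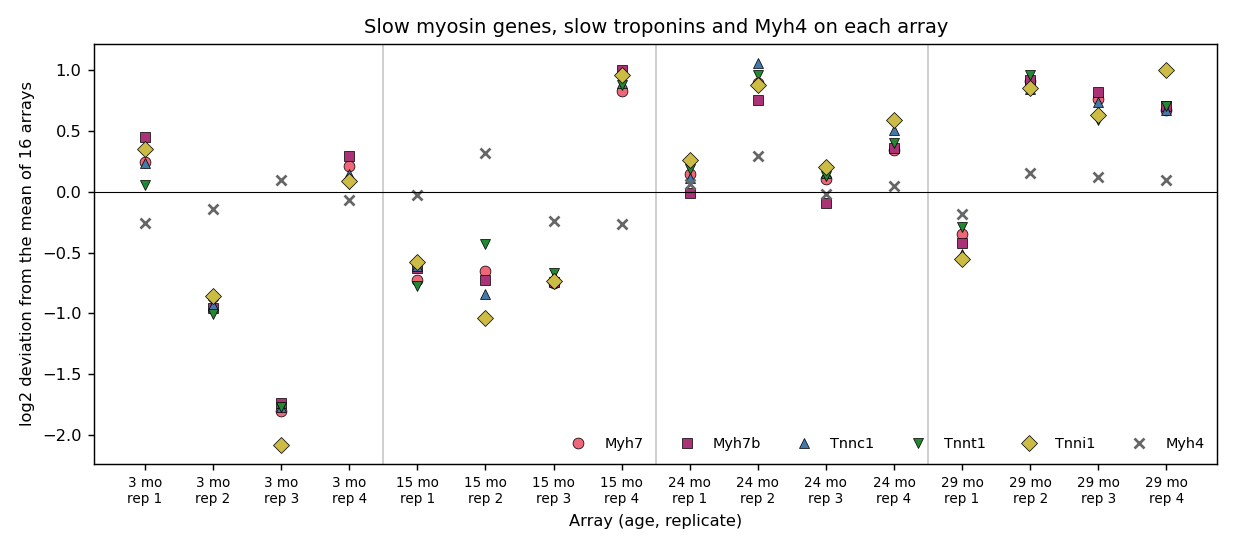
log2 deviation of Myh7, Myh7b, the slow troponin genes Tnnc1, Tnnt1 and Tnni1, and Myh4 from their means over 16 arrays, for each array (age and replicate, on the horizontal axis). The troponin genes were picked for their likeness to Myh7 over these arrays. The 5 slow genes move together within each age, from replicate 3 at 3 months at the bottom to replicate 4 at 15 months, replicate 2 at 24 months and 3 of the arrays at 29 months at the top, while the Myh4 points stay close to 0. The Myh4 values followed the array's 75th percentile with the sign turned (r = -0.96), so they bear little on how steady Myh4 was.

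For the fast adult chains Myh1, Myh2 and Myh4 the most alike genes were less close than for Myh7 and Myh7b. Those of Myh1 were Atf5 (r = 0.88), a stress-response transcription factor, Entpd5 (r = 0.87), a nucleotide hydrolase of the endoplasmic reticulum, and Agbl1 (r = 0.86). Those of Myh2 were Tmc4 (r = 0.87), Stim1 (r = 0.87), a calcium sensor of the sarcoplasmic reticulum, and Rap1gap (r = 0.86), a regulator of the Rap1 GTPase. For Myh4 they were the fast troponin gene Tnnc2 (r = 0.95), Pebp1 (r = 0.93) and the glycolytic gene Aldoa (r = 0.93), and for the brighter Myh8 probe they were Tnnc2 (r = 0.99), Gapdh (r = 0.97) and Aldoa (r = 0.96). Myh4 and the brighter Myh8 probe correlated at r = 0.96 after scaling and 0.32 before it (n = 16). As both followed the 75th percentile after scaling (r = -0.96 for Myh4 and -0.98 for Myh8), their most alike genes cannot be told apart from probes that share the scaling.

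Myh3, the embryonic chain, had the largest log2 changes of the family at 29 against 3 months. Its probe A_55_P2066440 had values of 0.41, -0.11, -0.78 and 0.24 at 3 months, 0.11, 1.31, 1.47 and 2.13 at 15 months, 1.33, 0.86, 1.35 and 1.09 at 24 months, and -0.11, 2.82, 0.66 and 2.64 at 29 months. Its probe A_55_P2083406 had values of 0.02, -0.45, -1.11 and -0.16 at 3 months, -0.36, 0.94, 1.08 and 1.67 at 15 months, 1.03, 0.54, 1.16 and 0.70 at 24 months, and -0.38, 2.32, 0.45 and 2.29 at 29 months. All 4 arrays at 24 months lay above all 4 at 3 months for both probes, 2 of 9 myosin probes against 6.47% of all probes. At 29 months replicates 2 and 4 were the highest of all arrays, replicate 3 lay above the 3-month arrays by a small margin and replicate 1 lay among them. At 15 months replicate 1 lay among the 3-month arrays and the other 3 above them.

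The log2 change of Myh3 at 29 against 3 months was 1.56 (SE 0.57, 95% CI 0.35 to 2.77, adjusted p = 0.081) for A_55_P2066440, 2.95-fold, and 1.6 (SE 0.54, 95% CI 0.43 to 2.76, adjusted p = 0.064) for A_55_P2083406, 3.02-fold. At 24 against 3 months the changes were 1.21 (SE 0.57, adjusted p = 0.24) and 1.29 (SE 0.54, adjusted p = 0.19), and at 15 against 3 months, within a slide, 1.31 (SE 0.57, adjusted p = 0.39) and 1.26 (SE 0.54, adjusted p = 0.39). Between 24 and 29 months, also within a slide, they were 0.35 (SE 0.57, adjusted p = 0.82) and 0.31 (SE 0.54, adjusted p = 0.83). The standard deviation of A_55_P2066440 was 1.45 at 29 months, against 0.53 at 3 months.

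Without replicate 1 at 29 months both Myh3 probes were called, with log2 changes of 2.1 (adjusted p = 0.015) and 2.11 (adjusted p = 0.012). This array also stood apart in lymphoid markers. Before scaling, its summed signal of B and plasma cell markers was 2415, against 103 to 337 on the other arrays at 29 months. That of T and NK cell markers was 7670, against 2891 to 3799. Replicate 4 at 24 months also had a high B and plasma cell sum (1643), with a T and NK cell sum of 2874. Its Myh3 values, 1.09 and 0.70, lay within those of its age. The part of these cells in the Myh3 values was not tested. Without the 4 arrays of lowest weight the Myh3 changes were 2.79 (adjusted p = 0.0033) and 2.73 (adjusted p = 0.0036). These came from the 4 arrays at 3 months and only replicates 2 and 4 at 29 months, the 2 highest for Myh3. Leaving out any other single array called neither, and without replicate 2 at 29 months the changes were 1.12 and 1.21. Fitting only the arrays of 3 and 24 months called both probes at 24 against 3 months (adjusted p = 0.045 and 0.036).

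**Figure D4:**
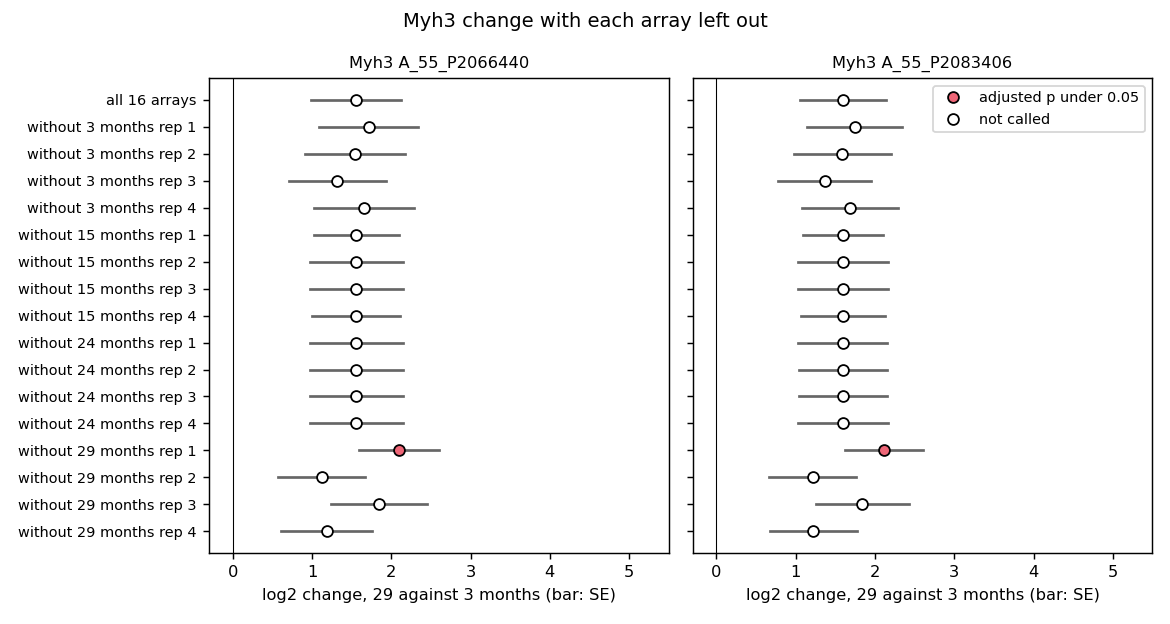
log2 change of both Myh3 probes at 29 against 3 months (horizontal axis, bar for the SE) with all 16 arrays and with each array left out in turn (rows). Filled points are called at an adjusted p under 0.05, which happens only without replicate 1 at 29 months (2.1 and 2.11).

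The 2 Myh3 probes moved together (r = 0.996, n = 16), and the difference of their log2 values varied by 0.32 over all arrays. The most alike genes of Myh3 were Uchl1 (r = 0.92), a deubiquitinating enzyme, Mtfr1 (r = 0.91), a mitochondrial fission regulator, and Plpp1 (r = 0.89), a lipid phosphatase. Their log2 changes at 29 against 3 months were 1.35 (adjusted p = 0.082), 0.38 (adjusted p = 0.18) and 0.54 (adjusted p = 0.067). Myh3 correlated with Myh7 at r = 0.65 (Spearman's rho = 0.56), or 0.44 without the 2 arrays farthest from the median.

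The 2 probes of Myh8, the perinatal chain, did not give the same pattern. Whether either reads Myh8 alone was not examined, so the high level of the brighter probe is not taken as that of Myh8. The probe A_51_P143296 had values of 10.66, 10.74, 11.03 and 10.91 at 3 months, 11.01, 11.30, 10.75 and 10.69 at 15 months, 11.11, 11.37, 10.96 and 10.98 at 24 months, and 10.74, 11.21, 11.02 and 10.96 at 29 months. The probe A_55_P2120161 had values of 5.43, 5.23, 5.38 and 5.22 at 3 months, 5.75, 5.73, 5.66 and 5.15 at 15 months, 4.99, 4.87, 5.49 and 5.14 at 24 months, and 4.87, 5.08, 5.53 and 5.04 at 29 months. The correlation of the 2 probes was -0.06 (Spearman's rho = -0.02, n = 16), 0.55 within the first slide and -0.18 within the second. Their difference in log2 value varied by 1.42 over the arrays.

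At 29 against 3 months the log2 change of Myh8 was 0.15 for A_51_P143296 (SE 0.15, 95% CI -0.17 to 0.47, adjusted p = 0.57) and -0.18 for A_55_P2120161 (SE 0.17, 95% CI -0.55 to 0.18, adjusted p = 0.52), of opposite sign. At 24 against 15 months the second probe changed by -0.45 (SE 0.17, 95% CI -0.81 to -0.08, adjusted p = 0.30), with replicate 4 at 15 months among the 24-month arrays, while the first changed by 0.17 (SE 0.15, adjusted p = 0.65).

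The brighter Myh8 probe and the Myh4 probe were nearly constant before scaling. Processed signals of A_51_P143296 lay between 520457 and 579881 on all 16 arrays, a 1.11-fold range, and its standard deviation before scaling, 0.04 on the log2 scale, was the lowest of all 28427 probes kept. Processed signals of Myh4 lay between 368823 and 434752, a 1.18-fold range, and its standard deviation of 0.07 was the fifth lowest of all probes. For comparison within the same scale, the median standard deviation of all kept probes before scaling was 0.34. Median spot signals were 68.8% to 76.6% of the scanner's saturation value for the Myh8 probe and 48.7% to 56.5% for Myh4, against 0.81% to 2.22% for the other Myh8 probe and 3.02% to 23.9% for Myh7.

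After scaling, the standard deviation was 0.21 for the brighter Myh8 probe and 0.18 for Myh4, and their values correlated with the array's own 75th percentile at r = -0.98 and -0.96 (n = 16). The normalised differences of these 2 probes between arrays therefore repeat, with the sign turned, the differences between the arrays' 75th percentiles. The other Myh8 probe did not follow the percentile after scaling (r = 0.11). Without scaling, the log2 change at 29 against 3 months was -0.02 for Myh8 A_51_P143296 (adjusted p = 0.93) and -0.03 for Myh4 A_51_P338072 (adjusted p = 0.91). Whether the brightness of these spots had a part in their narrow range was not tested.

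**Figure D5:**
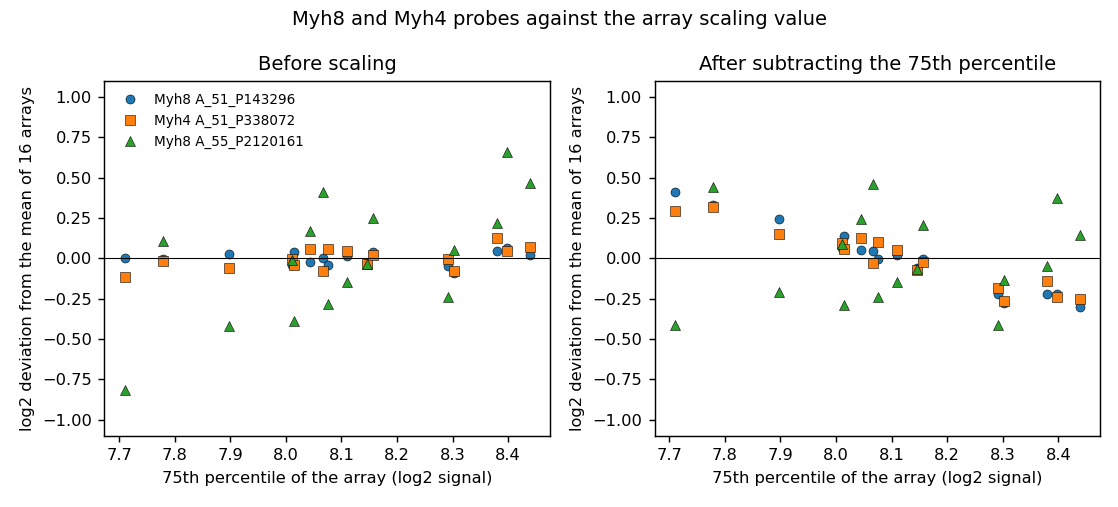
log2 deviation from the mean of 16 arrays of both Myh8 probes and the Myh4 probe, against the 75th percentile of the array (log2 signal), before scaling (left) and after subtracting that percentile (right). The brighter Myh8 probe and Myh4 lie flat on the left and fall along a line on the right (r = -0.98 and -0.96), and the second Myh8 probe (r = 0.11) does not.

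A straight line in age fitted with slide as a block, which uses differences within slides alone, called 0 of 9 myosin probes, against 0.63% of all probes, and without adjustment 2 of 9 (both Myh3 probes) against 11.1%. Per 10 months the log2 change of Myh3 was 1.03 (SE 0.42, adjusted p = 0.36) and 0.98 (SE 0.41, adjusted p = 0.36). That of Myh7 was 0.20 (SE 0.34, adjusted p = 0.90), of Myh7b 0.23 (SE 0.37, adjusted p = 0.89) and of Myh1 0.31 (SE 0.23, adjusted p = 0.70). That of Myh2 was 0.15 (SE 0.18, adjusted p = 0.84) and of Myh4 0.01 (SE 0.10, adjusted p = 0.98). The longer step, from 3 to 15 months, weighs more in this line than that from 24 to 29 months. For Myh1 these steps had opposite signs (0.64 and -0.49), so its line describes no steady trend.

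Genes that work with the myosins were described from lists, at 29 against 3 months and with 1 probe per gene. Over all 21772 genes 6.72% were called higher and 7.83% lower, and the median log2 change was -0.04. Of 11 partners of slow fibres 0 were called in limma's fit, and 5 had an unadjusted p under 0.05, against 28.5% of all probes. All 11 had a positive change, with a median of 0.61, across slides. Within slides, 10 of 11 were positive at 15 against 3 months (median 0.27) and 7 of 11 at 29 against 24 months (median 0.08). These genes are not independent of each other, as Tnnc1, Tnnt1 and Tnni1 all followed Myh7. The 3 of smallest p at 29 against 3 months were Tpm3, a slow tropomyosin gene (log2 change 0.61, adjusted p = 0.074), Tnnt1 (1.16, adjusted p = 0.091) and Atp2a2 (1.07, adjusted p = 0.14). The mean deviation of the slow list was -0.56, 0.83, 0.40 and 0.56 on the arrays of 29 months and 0.20, -0.41, -1.28 and 0.11 on those of 3 months, so the groups overlapped through replicate 1 at 29 months.

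Of 9 partners of fast fibres, 1 fell and 0 rose, with a median log2 change of -0.23. A positive change was found for 4 of 9, Tnnt3 (0.03), Tpm1 (0.07), Tnnc2 (0.12) and Tnni2 (0.23), none of them called. Tnnc2 was the gene most alike to the brighter Myh8 probe (r = 0.99), whose scaled values followed the array's 75th percentile (r = -0.98). The part of the scaling in these 4 small changes was not tested. The one that fell was Casq1, the calcium store protein of the fast sarcoplasmic reticulum (log2 change -1.20, SE 0.15, adjusted p = 0.00017). Casq1 values were 5.06, 5.05, 5.09 and 5.41 at 29 months, all below those at 3 months, 6.39, 6.40, 6.41 and 6.23. Myoz1, a Z-disc protein gene (-0.28, adjusted p = 0.23), and Pvalb, the fast-fibre calcium buffer parvalbumin (-0.24, adjusted p = 0.24), did not pass. Of 12 measured thick filament and myosin folding genes 0 were called in limma's fit, with a median log2 change of 0.18. An unadjusted p under 0.05 was found for 4 of 12, against 28.5% of all probes. The 3 of smallest p were the chaperone Hsp90aa1 (0.39, adjusted p = 0.065), the muscle methyltransferase gene Smyd1 (-0.37, adjusted p = 0.11) and the M-band gene Myom3 (1.07, adjusted p = 0.12).

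Of 10 measured light chain genes, which encode the small subunits that sit on the heavy chain's lever arm, 1 rose and 0 fell (median log2 change 0.08). It was Myl12a, a nonmuscle regulatory light chain (0.79, SE 0.24, adjusted p = 0.037), which was not called without any one of replicates 2, 3 or 4 at 3 months or replicates 2 or 4 at 29 months. Its call was also lost with quantile normalization, scaling by the median, no scaling, normexp, the deposited values, no filter, only the ages compared and the replicate block (called in 17 of 30 alternatives). Myl6 (-0.31, adjusted p = 0.052) and Myl9 (-0.68, adjusted p = 0.13), of smooth and nonmuscle cells, did not pass. Of 6 measured further heavy chain genes 1 rose, the nonmuscle chain Myh14 (0.80, SE 0.14, adjusted p = 0.0016). Its values were 4.55, 5.05, 4.74 and 4.98 at 29 months, all above 4.13, 4.05, 3.79 and 4.17 at 3 months. The Myh14 call was lost with no scaling (adjusted p = 0.053) and kept in the other 29 of 30 alternatives. The nearest to a call after it were the cardiac chain Myh6 (0.50, adjusted p = 0.45) and the nonmuscle chain Myh10 (0.39, adjusted p = 0.53).

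Of 17 measured regulators of fibre type 4 rose and 0 fell, with a median log2 change of 0.11. Those that rose were Hdac4, a class IIa histone deacetylase that represses MEF2 (0.92, SE 0.17, adjusted p = 0.0024), Ppargc1a, a coactivator of slow and oxidative genes (0.98, SE 0.23, adjusted p = 0.011), Tead4, a factor that binds MCAT elements (0.96, SE 0.24, adjusted p = 0.014), and Vgll2, a TEAD cofactor (0.74, SE 0.24, adjusted p = 0.049). The Vgll2 call was lost in 11 of 16 fits that left out 1 array, all but those without replicate 4 at 3 months, 1 or 4 at 15 months, 2 at 24 months or 1 at 29 months. It was also lost with scaling by the median, no scaling, no filter, only the ages compared, the replicate block and without the 4 arrays of lowest weight (called in 13 of 30 alternatives). Hdac4, Ppargc1a and Tead4 were called in all 16 such fits. Ppargc1a was not called with no scaling (adjusted p = 0.083), nor Tead4 with no scaling or with only the ages compared (adjusted p up to 0.11).

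Of 10 genes of developing and regenerating muscle 5 rose and 2 fell, with a median log2 change of 0.80, across slides. Within slides, at 15 against 3 months 1 was called higher and 1 lower, against 0.652% and 0.299% of all genes (median 0.12, 7 of 10 positive). At 29 against 24 months 0 were called, against 0.96% higher and 0.413% lower of all genes (median -0.07, 3 of 10 positive). Across slides at 24 against 15 months 0 were called and 9 of 10 were positive (median 0.47). The calls that follow are those at 29 against 3 months. Myf6 (1.33, SE 0.18, adjusted p = 0.00024) and Myog (1.63, SE 0.27, adjusted p = 0.0013), both myogenic transcription factors, rose and Myod1, another, fell (-1.11, SE 0.26, adjusted p = 0.010), each in all 16 fits without 1 array. Without the 4 arrays of lowest weight Myod1 was not called (adjusted p = 0.068). Mymx, a fusion peptide of muscle cells, was not well above background on any array at 3 months and was at least 10.5-fold higher at 29 months (adjusted p = 0.00094), a bound taken from the dimmest signal above background on each array. The bound holds for the reported processing, and with normexp the fitted log2 change of Mymx was 2.26, against 5.12 in the reported fit. Chrng, the fetal subunit of the acetylcholine receptor (0.77, adjusted p = 0.031), and Igfn1 (1.82, adjusted p = 0.047, above background on 3 of 4 arrays at 3 months) rose, and Actc1, the cardiac actin made in developing muscle, fell (-1.54, adjusted p = 0.033). On the first slide, Actc1 values were 6.218, 5.356, 5.89 and 5.189 at 15 months, below 8.045, 8.594, 8.325 and 7.926 at 3 months. Chrng was not called once replicate 1, 2 or 4 at 3 months or replicate 2 or 3 at 29 months was left out, nor Actc1 without any one array at 3 months or any of replicates 1, 2 or 3 at 29 months. The Igfn1 call was lost in 13 of 16 such fits, all but those without replicate 4 at 3 months or replicates 1 or 3 at 29 months. Of all alternatives, Chrng was called in 19 of 29, Actc1 in 17 of 30 and Igfn1 in 10 of 29. All 3 calls were lost with scaling by the median and with no filter. Without the 4 arrays of lowest weight Chrng and Actc1 were not called, with quantile normalization or no scaling Chrng and Igfn1 were not, and with only the ages compared Actc1 and Igfn1 were not. Actc1 was also lost with the replicate block and with array weights, and Igfn1 with the deposited values. Myh3 itself, another gene of developing muscle, was not called, as above.

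Markers of other cells moved between the same ages. Their summed signals are given before scaling between arrays. Of 4 fibroblast markers 2 fell at 29 against 3 months, Col1a1 (-2.60, adjusted p = 0.0041) and Col3a1 (-2.21, adjusted p = 0.027), and the summed signal of all 4 was 17270 to 37150 at 29 months and 42920 to 55940 at 3 months. Of 3 measured B and plasma cell markers 1 rose, Jchain (adjusted p = 0.028), and the summed signal was 103, 199, 337 and, on replicate 1, 2415 at 29 months, against 98.3 to 174 at 3 months. None of 4 smooth muscle, 3 measured cardiac, 2 measured T and NK cell, 3 measured adipocyte or 4 skeletal muscle markers was called in limma's fit. Of these markers 0 had an unadjusted p under 0.05, against 28.5% of all probes. The summed signal of the smooth muscle markers was 5184 to 6525 at 29 months and 7630 to 9695 at 3 months. After scaling their mean deviation was -0.60 to -0.04 at 29 months and -0.17 to 0.64 at 3 months, so these ages overlapped. That of the fibroblast markers was -1.60 to 0.50 and 0.63 to 1.48, which did not overlap. The summed signal of the adipocyte markers was 1022 to 5153 at 29 months and 2832 to 4961 at 3 months. The part of these cells in the myosin values was not tested.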

How the data were processed

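The scanner files hold each spot's brightness as intensity, per the file headers from Feature Extraction 10.7.1.1, with background subtracted and arrays not yet scaled to each other. A table of log2 values was deposited too, and how the authors made it is not stated in the sources used here. Its rows followed the feature order of the scanner files (r = 0.985 to 0.993 across probes) and not their probe names (r = -0.00495 to 0.0183), and it was used by feature number as an alternative only. Its scale is log2, its array medians are 4.55 to 4.69, and its centring and direction per gene were not changed here.

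Of 62976 spots per array 59305 were not controls. Spots flagged as outliers were left out, which left 55588 probes, 26540 of them matched to 1 RefSeq gene by accession. Names come from RefSeq assembly GRCm38.p6, and the headers name build mm9, so coordinates are given only for the printed RefSeq promoters and microRNAs, in GRCm38.p6. log2 processed signals minus each array's 75th percentile were averaged per probe. A probe was kept if some age had it well above background on each of its 4 arrays (28427 probes). Age means were fitted to 16 arrays with limma 3.58.1 in R 4.3.3 (12 residual and 2.83 prior degrees of freedom, two-sided) and adjusted by Benjamini-Hochberg over all kept probes. A gene in a list was read from its kept probe of highest mean. The text names every member probe, the 3 genes of smallest p at 29 against 3 months and the called genes of each list, and the 3 genes most alike to each member.

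The members, the lists (other heavy chains, light chains, thick filament and folding, slow partners, fast partners, fibre type regulators, developing muscle, and markers of smooth muscle, cardiac, T and NK, B and plasma, adipocyte, fibroblast and skeletal muscle cells) and the tests were chosen with earlier results of these data known. Samples were grouped by their labels. Replicate numbers did not pair the arrays (same-numbered arrays correlated at r = -0.46 to 0.29 after age means were subtracted). The number of arrays limits the precision. The fit was tested on simulated data. Alternatives were other normalizations, background correction, filters, the deposited values, 1 probe a gene, subsets of ages and arrays, array weights and blocks.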

Additional observations from a re-analysis of the deposited data

Results flagged for a closer look

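In groups of 4, Dixon's gap ratio (the gap of the extreme array to its neighbour over the group's range) exceeded its 95% critical value for 5 probe and age pairs of the 36 examined. Chance alone flags about 1 in 20 such groups if they are independent, which these are not. Myh7 and Myh7b correlated at r = 0.99, and all 5 flags came from replicate 4 at 15 months or replicate 1 at 29 months. Replicate 4 at 15 months was the highest of its group for Myh7 (ratio 0.939) and Myh7b (ratio 0.933), and the lowest for the Myh8 probe A_55_P2120161 (ratio 0.852). Replicate 1 at 29 months was the lowest of its group for Myh7b (ratio 0.84) and Myh4 (ratio 0.836). Before scaling, its Myh4 signal was 397145, above that of replicate 2 (381918). The 75th percentile of that array, 8.29, was the highest of its age, so the Myh4 flag repeats the scaling. On replicate 4 at 15 months the mean deviation of the 11 slow fibre partners was 0.79, against a median of -0.38 over the 4 arrays of that age.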

How the results depend on the processing

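Of 208 counts of called myosin probes under 30 alternatives, 203 were 0, as with all arrays. The exceptions were 2 Myh3 probes at 24 against 3 months when only the ages compared were fitted. At 29 against 3 months there were 1 with normexp background correction (A_55_P2083406, adjusted p = 0.049), 2 with array weights (log2 2.16 and 2.16), 2 without the 4 arrays that stood apart, and 0 to 2 when 1 array was left out. The cause was not tested. With no member called in the reported fit, no member call could be lost. The lost calls of partner genes stand beside each gene, and their cause was not tested. The counts over all probes moved more. At 29 against 3 months they were 4102 in the fit reported, 2014 with scaling by the median, 2559 with no filter, 2523 with only the ages compared, 2058 with no scaling, and 2832 to 4538 with 1 array left out. Over all alternatives they ranged from 72 to 1369 at 15 against 3 months (280 reported), 599 to 2491 at 24 against 3 (1279), 3 to 154 at 24 against 15 (29), 9 to 1511 at 29 against 24 (378), 59 to 1235 for the line (179) and 20 to 1385 for the difference of steps (155). Scaling by the median moved the median change of all probes by over 0.1, to -0.13 at 24 against 3 months, -0.15 at 24 against 15, 0.09 at 29 against 24 and 0.09 for the difference of steps (0.01, 0.00, -0.05 and -0.04 as reported). Without scaling it was -0.12 at 15 against 3, -0.24 at 24 against 3, -0.13 at 24 against 15, 0.14 for the difference of steps and -0.20 at 29 against 3, where 25.0% of calls were higher in place of 46.8%. The 2 unscaled or otherwise rescaled settings, the percentile over probes detected on all arrays and no scaling, were chosen after seeing the data. With the replicate number as a block 0 of 9 myosin probes were called in each of 7 results, the pairing check found 6 of 24 same-numbered pairs above 0.1, and only 2 of 16 arrays correlated best with their own number. The second Myh8 probe was not analysed with the deposited values. Slide as a random block could not be fitted, since each age lies on 1 slide. All 9 probes were flagged as well above background on all 16 arrays. The Myh3 probes were the dimmest, with processed signals of 151 to 1687 for A_55_P2066440 and 119 to 1318 for A_55_P2083406.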
